A study of Mus musculus with 10 samples.

Results

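The genes described here are 8 genes of lipoprotein and sterol transport: the apolipoprotein genes Apoe and Apoc1, the lipoprotein receptor genes Vldlr, Lrp1 and Lrp8, the sterol exporter genes Abca1 and Abcg1, and Nr1h2, the gene of a sterol-sensing nuclear receptor. They were taken by symbol from a table of 55401 genes, and all 8 were present, each with 1 row. Their levels were measured by poly(A) RNA-seq in E14 cells, a line of mouse embryonic stem cells, in 10 libraries. Of these, 4 came from untreated wild-type cells (sets 1 and 2, each with a pair of libraries) and 6 from cells in which CRISPR/Cas9 editing had introduced the ANKRD11 Y347A mutation (sets 1 to 3, each with a pair). ANKRD11 is a nuclear protein of transcriptional regulation, and the series asks how its binding to cohesin bears on neural and facial development. No other allele or agent is named for either genotype. Nothing in the labels tells if sets were clones, cultures or days, so every p-value measures the spread between these sets or libraries, which may be technical. The 8 genes were selected on the mutant and wild-type TPM values of these same libraries, in that these were known when the genes were picked, and the differences between the genotypes for these 8 are therefore a description and carry no test.

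Apolipoprotein E is a secreted protein that binds lipid and is the ligand by which lipoprotein particles are taken up through a family of cell surface receptors. VLDLR and LRP8 (also called ApoER2) belong to that family and also receive the signal of reelin in the developing brain, while LRP1 is a large endocytic receptor with many ligands. Cholesterol leaves cells through the ABC transporters ABCA1 and ABCG1, and the liver X receptors LXR-alpha (Nr1h3) and LXR-beta (Nr1h2) activate the genes of both transporters, and in some tissues Apoe, when oxysterols accumulate. In the early mouse embryo apolipoproteins are best known from the visceral endoderm.

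The upstream sequences of Apoe and Lrp1 are shown because these were the genes with the widest separation between the genotypes, and that of Abca1 because it is the textbook LXR target among the 8. Each is the 250 bases before a RefSeq transcription start, read 5' to 3' on the gene's own strand (GRCm38.p6). They lie at chr7:19699189-19699438 (minus strand, Apoe), chr10:127621149-127621398 (minus strand, Lrp1) and chr4:53159896-53160145 (minus strand, Abca1), and none overlaps an annotated exon. Capitals mark matches to a GC box, an E-box or a TATA box on either strand.
Apoe: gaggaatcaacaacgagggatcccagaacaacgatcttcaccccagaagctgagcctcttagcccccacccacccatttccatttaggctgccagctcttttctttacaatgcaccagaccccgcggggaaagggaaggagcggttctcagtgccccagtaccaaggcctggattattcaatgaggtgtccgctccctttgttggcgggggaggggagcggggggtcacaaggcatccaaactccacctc
Lrp1: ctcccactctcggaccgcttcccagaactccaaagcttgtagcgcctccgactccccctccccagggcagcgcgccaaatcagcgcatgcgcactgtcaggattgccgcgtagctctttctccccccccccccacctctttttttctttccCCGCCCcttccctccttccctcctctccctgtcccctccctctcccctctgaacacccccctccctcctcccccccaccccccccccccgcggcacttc
Abca1: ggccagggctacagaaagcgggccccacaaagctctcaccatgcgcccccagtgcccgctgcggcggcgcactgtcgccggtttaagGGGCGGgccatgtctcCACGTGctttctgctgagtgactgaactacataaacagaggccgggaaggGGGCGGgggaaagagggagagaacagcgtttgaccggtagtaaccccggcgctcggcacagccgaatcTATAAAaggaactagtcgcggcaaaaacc
The RefSeq upstream sequences used here covered 6 of the 8 genes (not Apoc1 and Abcg1). Searched on both strands, the Lrp1 window held 1 GC box (GGGCGG, found in 32.7% of 32851 mouse windows of this length). The Abca1 window held 2 GC boxes, 1 E-box (CACGTG, 6.02% of windows; it also holds the hypoxia response core ACGTG, 16.6%) and 1 TATA box (TATAAA, 12.4%) 29 bases before the start. The Apoe window matched none of these letters. RefSeq gives Apoe 3 starts, and the window shown is that of the most upstream one; the window at chr7:19698622-19698871 held 2 TATA box matches, overlapping on opposite strands, 100 and 96 bases before its start, and the window at chr7:19698399-19698648 held no match. No Apoe window, nor that of Lrp1 or Abca1, held an exact repeat unit of an LXR response element (AGGTCA, 14.0% of windows). None therefore held its exact direct repeat with 4 bases between the units (0.0152%). Only exact letters were sought, so a response element that varies from them would be missed. The absence of such an element from any window, that of Abca1 included, cannot be read from this search. No CCAAT box (CCAAT, 33.8%) was found in these windows. These are matches of letters only, in a short window, and say nothing of binding.

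The values are TPM, the share of a library's transcripts that a gene makes up, scaled for transcript length, so levels can be compared between genes. The number of reads behind each value is unknown. Means are given ± SD over set means, with n = 2 in wild type and n = 3 in the mutant. A log2 fold change is the mutant less the wild-type value of log2(TPM + 1), ± its SE from limma, a scale that shrinks the differences of low genes. In wild-type cells the order of levels was Apoe (858 ± 67.8), Apoc1 (141 ± 16.5), Nr1h2 (53.6 ± 1.32), Lrp1 (32.8 ± 2.61), Abca1 (5.09 ± 0.332), Lrp8 (3.08 ± 0.658), Vldlr (2.14 ± 0.272) and Abcg1 (1.71 ± 1.22) TPM. The ranges of Lrp8, Vldlr and Abcg1 overlapped one another, so their order is not resolved, whereas the genes above them were separated in every wild-type library. In the mutant Lrp1 stood above Nr1h2, the reverse of the wild-type order, and Lrp8 and Vldlr again overlapped. Libraries held 12473 to 12812 genes at 1 TPM or more. Ankrd11 itself lay between 58.0 and 66.0 TPM in wild-type and between 53.4 and 69.0 TPM in mutant libraries, which does not check the labels, since a change of 1 residue need not alter the mRNA. Pou5f1, a defining stem cell factor, was between 1026 and 1271 TPM in all 10 libraries.

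**Figure D1:**
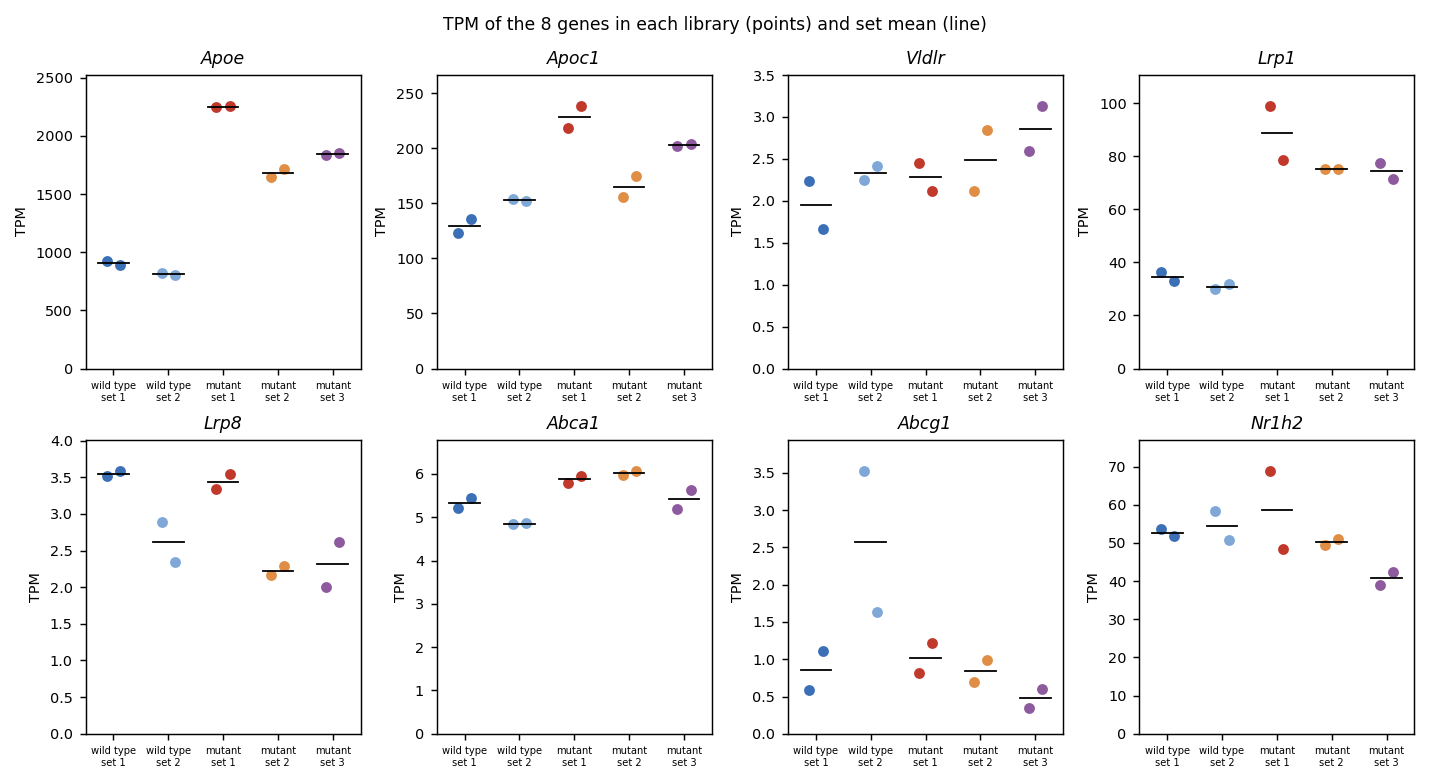
TPM of each of the 8 genes by set, with 1 point per library and a line at the set mean; every axis starts at 0. The 6 mutant libraries lie above the 4 wild-type libraries for Apoe, Apoc1 and Lrp1, and single libraries of the genotypes overlap for the other 5 genes.

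Apoe (ENSMUSG00000002985.16, mm10 chromosome 7, 19696109 to 19699188, minus strand) was an abundant transcript in wild-type cells, with a mean between those of the stem cell factors Nanog and Pou5f1, and stood above both in every mutant library. In the wild-type libraries it was at 923 and 888 TPM in set 1 and 820 and 800 TPM in set 2. In the mutant libraries it was at 2246 and 2256 TPM in set 1, 1644 and 1715 TPM in set 2, and 1838 and 1853 TPM in set 3. The lowest mutant library thus stood well above the highest wild-type library. The mean was 858 ± 67.8 TPM in wild-type and 1925 ± 294 TPM in mutant sets, a ratio of 2.24 and a log2 fold change of 1.16 ± 0.12. Ranked by TPM among all genes, Apoe was between the 165th and 189th gene in wild-type and between the 87th and 109th gene in mutant libraries. It took 0.0800% to 0.0923% of all TPM in wild-type and 0.164% to 0.226% in mutant libraries. In bulk RNA a change in the number of cells that express a gene and a change in its RNA per cell cannot be told apart.

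Apoc1 (ENSMUSG00000040564.14, chromosome 7, 19689481 to 19692660, minus strand), which encodes a small apolipoprotein that hinders the uptake of lipoproteins, lies next to Apoe and in the same orientation. It was at 123 and 136 TPM in wild-type set 1 and 154 and 152 TPM in wild-type set 2. The mutant values were 219 and 239 TPM in set 1, 155 and 175 TPM in set 2, and 203 and 204 TPM in set 3. The genotypes did not overlap, but only just, since the lowest mutant library (155.47 TPM) and the highest wild-type library (153.87 TPM) lay side by side. The means were 141 ± 16.5 and 199 ± 31.9 TPM, a ratio of 1.41 and a log2 fold change of 0.48 ± 0.14. The number of Apoe transcripts per Apoc1 transcript, a ratio within each library that no rescaling of a library alters, ranged from 5.27 to 7.48 in wild-type libraries and from 9.07 to 10.6 in mutant libraries. These ranges did not overlap. The ratio is made of the same values by which the genes were chosen, so it too is a description and carries no test. How often other pairs of genes separate in this way was not computed.

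**Figure D2:**
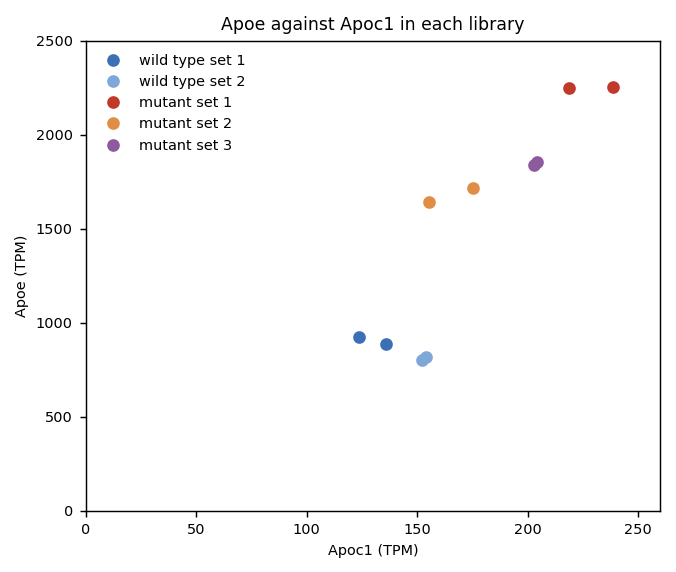
Apoe TPM (vertical axis) against Apoc1 TPM (horizontal axis), with 1 point per library coloured by set. Both wild-type sets lie at 800 to 923 TPM of Apoe, set 2 with more Apoc1 and less Apoe than set 1, and the 3 mutant sets lie at 1644 to 2256 TPM of Apoe.

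Among the 3 receptor genes, Lrp1 was higher in every mutant library and the 2 reelin receptors were not. Lrp1 (ENSMUSG00000040249.15, chromosome 10, 127538161 to 127621148, minus strand) was at 36.3 and 32.9 TPM in wild-type set 1 and 30.0 and 31.9 TPM in set 2. In the mutant it was at 99.0 and 78.8 TPM in set 1, 75.2 and 75.3 TPM in set 2, and 77.5 and 71.4 TPM in set 3. The genotypes did not overlap, and replicate 1 of mutant set 1 was the highest library, well above its partner. The means were 32.8 ± 2.61 and 79.5 ± 8.11 TPM, a ratio of 2.43 and a log2 fold change of 1.25 ± 0.10. Lrp1 was the receptor with the most transcripts of the 3 in both genotypes, at 5.83 to 6.68 transcripts per transcript of Vldlr and Lrp8 together in wild-type libraries and 12.4 to 17.6 in mutant libraries.

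Vldlr (ENSMUSG00000024924.14, chromosome 19, 27216484 to 27254231, plus strand) was low throughout. It was at 2.24, 1.66, 2.25 and 2.42 TPM in the wild-type libraries of sets 1 and 2, and at 2.45, 2.12, 2.12, 2.85, 2.59 and 3.13 TPM in those of mutant sets 1, 2 and 3. The groups overlapped, with a log2 fold change of 0.17 ± 0.15 (95% interval -0.19 to 0.54). Lrp8 (ENSMUSG00000028613.15, chromosome 4, 107802261 to 107876840, plus strand) was at 3.52, 3.58, 2.89 and 2.35 TPM in wild-type sets 1 and 2 and at 3.34, 3.54, 2.16, 2.29, 2.0 and 2.62 TPM in mutant sets 1, 2 and 3. Here the first set of each genotype was high and the later sets were low, so the spread between sets was wider than the difference between genotypes (log2 fold change -0.17 ± 0.20, 95% interval -0.64 to 0.30). Lrp8 overlaps the antisense gene Lrp8os2 (0.39 to 3.56 TPM) outside the exons, and no exon of any of the 8 genes overlaps an exon of another gene.

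For the exporters and the receptor that regulates them, single libraries of the genotypes overlapped. Abca1 (ENSMUSG00000015243.4, chromosome 4, 53030787 to 53159895, minus strand) was at 5.21, 5.44, 4.84 and 4.87 TPM in the wild-type libraries and at 5.79, 5.96, 5.97, 6.06, 5.19 and 5.63 TPM in the mutant libraries. Only mutant set 3 reached into the wild-type range, the 3 mutant set means (5.41 to 6.02 TPM) lay above the wild-type set means (4.86 and 5.33 TPM), and the log2 fold change was 0.15 ± 0.12 (95% interval -0.13 to 0.43). Abcg1 (ENSMUSG00000024030.7, chromosome 17, 31057675 to 31117988, plus strand) had the lowest mean of the 8 in both genotypes, though not in wild-type set 2, at 0.59 and 1.11 TPM in wild-type set 1, 3.52 and 1.63 TPM in wild-type set 2, and 0.82, 1.22, 0.69, 0.99, 0.35 and 0.60 TPM in the mutant libraries. Its log2 fold change of -0.52 ± 0.30 rested on wild-type set 2, being -0.06 without that set and -0.97 without wild-type set 1. Nr1h2 (ENSMUSG00000060601.13, chromosome 7, 44549616 to 44553951, minus strand) was at 53.6, 51.8, 58.4 and 50.7 TPM in wild-type and at 68.8, 48.4, 49.5, 51.0, 39.1 and 42.4 TPM in mutant libraries. The mutant libraries spanned the wild-type range on both sides (log2 fold change -0.12 ± 0.14, 95% interval -0.45 to 0.21).

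Of the 12797 genes whose mean reached 1 TPM, 17.5% passed the limma test of mutant against wild-type set means at a Benjamini-Hochberg adjusted p under 0.05 (892 genes or 6.97% higher, 1350 or 10.5% lower in the mutant). The balance moved with the scaling, to 1096 higher and 1064 lower under median-of-ratios rescaling and 1073 and 1039 under quantile normalization. All 8 genes passed the filter on the mean. Of the 8, Apoe and Lrp1 (2 genes) were past that threshold, both higher, and 0 were past it on the lower side; since the genes were chosen with these values known, nothing is read from that count. Without wild-type set 2, when 42 genes in all were called, neither was past it, and Apoc1 was also past it in 7 of 25 alternatives (a mean of at least 5 TPM, quantile normalization, the 3 fits on single libraries, and without mutant set 2 or its replicate 1). The 6 mutant libraries lay above all 4 wild-type libraries for 3 of the 8 genes, against 12.4% of all tested genes, and below them for 0 of the 8, against 19.4%. A log2 fold change of at least 1 in size was seen for 2 of the 8, against 2.84% of tested genes (0.985% higher in the mutant). The median log2 fold change was 0.16 over the 8 genes and -0.04 over all tested genes.

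Differences between sets of the same genotype do not use the comparison by which the genes were chosen, and these were tested on single libraries (limma, 5 set means in 1 fit). Between the mutant sets 19.6% of all tested genes differed at an adjusted p under 0.05, and so did 2 of the 8, Apoe (F test, adjusted p = 4.5e-04) and Apoc1 (adjusted p = 0.0092). Both were highest in mutant set 1 and lowest in mutant set 2, with set means of 2251, 1679 and 1846 TPM for Apoe and 229, 165 and 203 TPM for Apoc1 in sets 1, 2 and 3. Between the wild-type sets 2.75% of genes differed. Apoe was lower in set 2 than in set 1 by 0.16 ± 0.03 on the log2 scale (limma adjusted p = 0.035; lower in both libraries). That call was lost without either library of mutant set 3 (adjusted p = 0.0703 and 0.0704) and without any 1 of the 4 wild-type libraries (adjusted p between 0.103 and 0.194). Apoc1 differed by 0.24 ± 0.07 in the opposite direction, which did not pass (limma adjusted p = 0.11). For the other 6 genes the adjusted p was between 0.066 (Lrp8) and 0.52 (Vldlr) among mutant sets and between 0.13 (Abcg1) and 0.89 (Nr1h2) between wild-type sets. Lrp1 passed among the mutant sets only without replicate 2 of mutant set 1 (limma adjusted p = 0.0331), as did Nr1h2 without that library (adjusted p = 0.0119) and under median-of-ratios rescaling (adjusted p = 0.0458).

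The other genes of lipoprotein and sterol handling were drawn from 6 lists with 174 distinct genes beside the 8. Of these, 116 were measured, 11 rose and 6 fell (limma on set means, adjusted p under 0.05), which is 14.7% called against 17.5% of all tested genes, with a median log2 fold change of 0.01. Of 22 other lipoprotein receptors and adaptors measured, 3 rose and 1 fell, and 18 did not pass (median -0.10). Sort1, encoding the sorting receptor sortilin, rose from 1.84 ± 0.230 to 4.07 ± 0.470 TPM (0.83 ± 0.15). Snx17, which returns LRP1 from endosomes to the cell surface, rose by 0.31 ± 0.07. Dab1, the intracellular adaptor by which VLDLR and LRP8 pass on the reelin signal, fell from 2.47 ± 0.230 to 1.09 ± 0.335 TPM (-0.74 ± 0.19). The limma adjusted p was 0.017 for Sort1, 0.030 for Snx17 and 0.041 for Dab1.

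Of 13 other apolipoprotein and lipoprotein-remodelling genes measured, 1 rose and 12 did not pass (median 0.22). It was Lmf1, a maturation factor of lipases in the endoplasmic reticulum, which went from 6.43 ± 0.474 to 9.62 ± 0.594 TPM (0.51 ± 0.11, limma adjusted p = 0.027). The other genes of the Apoe cluster, Apoc2 (0 to 0.80 TPM) and Apoc4 (0.03 to 1.84 TPM), and the main apolipoproteins of liver and gut, Apoa1 (0 to 0.44 TPM) and Apob (0.01 to 0.08 TPM), were below the filter in these cells. Of 16 other LXR-related genes measured, Ppard rose, Acaca fell and 14 did not pass (median 0.02). Ppard, a fatty acid sensing nuclear receptor, rose from 12.5 ± 0.902 to 17.4 ± 0.553 TPM, and Acaca, the first enzyme of fatty acid synthesis, fell from 26.7 ± 8.10 to 13.9 ± 1.52 TPM (limma adjusted p = 0.024 and 0.025). Named with their values in view, the LXR target Srebf1 was at 26.1 ± 0.106 and 26.1 ± 0.669 TPM and LXR-alpha (Nr1h3) at 0.22 to 1.03 TPM in all libraries, too low to test. Other genes of that list that did not pass, named in the same way, went in either direction. The log2 fold change was 0.38 ± 0.17 for Pltp and 0.21 ± 0.10 for Scd1. It was -0.44 ± 0.17 for Arl4c, -0.30 ± 0.17 for Mylip and -0.23 ± 0.10 for Lpcat3.

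Of 23 other genes of sterol export and intracellular sterol handling measured, 4 rose, 0 fell and 19 did not pass (median 0.08). Soat1, which esterifies cholesterol for storage, rose from 7.14 ± 1.41 to 14.6 ± 1.49 TPM (0.94 ± 0.14, limma adjusted p = 0.011). Cyp27a1, an enzyme that makes an oxysterol from cholesterol, rose from 1.09 ± 0.0566 to 2.64 ± 0.634 TPM (0.78 ± 0.19). Gramd1b and Gramd1a, carriers of cholesterol from the plasma membrane to the endoplasmic reticulum, rose by 0.49 ± 0.12 and 0.35 ± 0.09. Of 27 genes of the SREBP pathway, which raises cholesterol synthesis and uptake when sterols run low, 4 fell, 0 rose and 23 did not pass (median -0.08). Among all tested genes 10.5% were called lower and 6.97% higher in the mutant, and nothing is read from the counts of these lists. Fdps and Idi1, enzymes of the isoprenoid steps of cholesterol synthesis, fell from 246 ± 9.54 to 185 ± 15.0 TPM and from 92.1 ± 2.96 to 69.7 ± 3.21 TPM (limma adjusted p = 0.022 and 0.018). Hsd17b7, an enzyme of the later sterol steps, fell by 0.47 on the log2 scale (limma adjusted p = 0.0499). The Hsd17b7 call was lost in 20 of 25 alternatives (limma adjusted p up to 0.255). These calls rested on few sets and on the settings. Of the 24 list genes that the rule for named genes took and that passed, leaving out wild-type set 2 lost 24, and leaving out wild-type set 1 lost 21. Dropping mutant sets 1, 2 or 3 lost 18, 5 and 18, and dropping any one library lost between 1 and 9 (9 without replicate 1 of mutant set 1). With no filter on low values 19 of the 24 were lost, among them Sort1, Dab1, Acaca, Ppard, Cyp27a1, Fdps and Cd68, and 7 were lost with no variance trend and 7 with a correction for GC content.

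**Figure D3:**
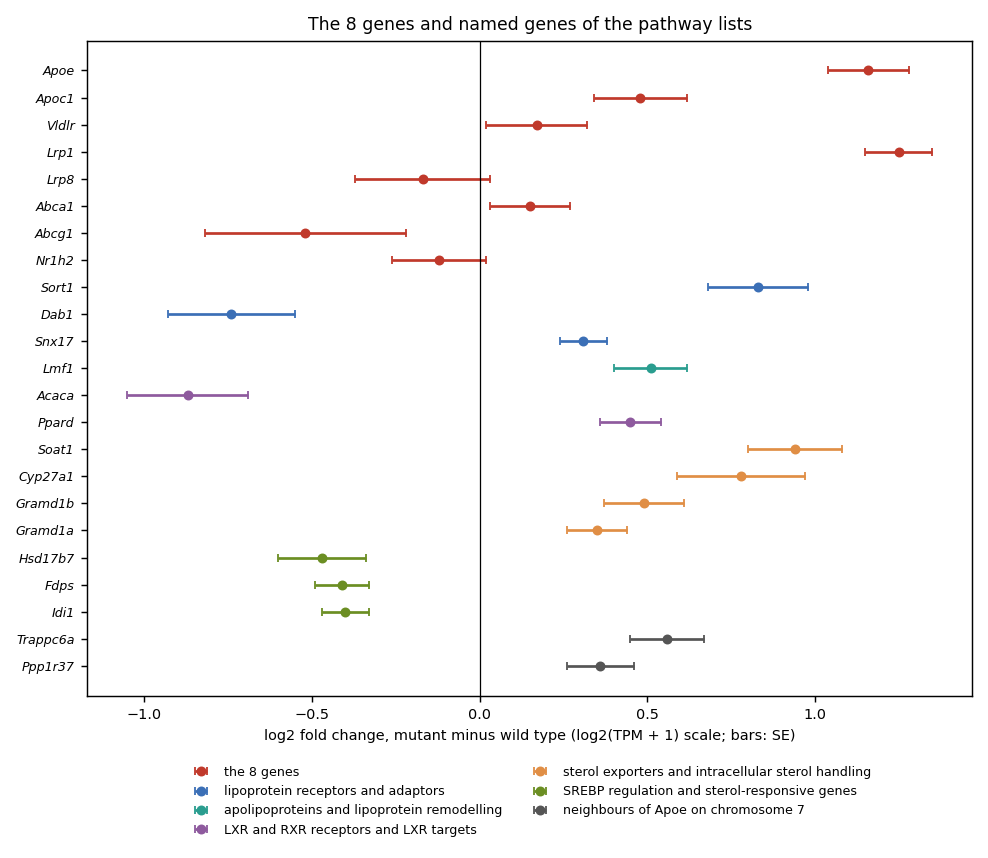
Log2 fold change of mutant minus wild type on the log2(TPM + 1) scale (points) with its SE (bars) for the 8 genes and named genes of the 6 pathway lists, coloured by list. Apoe (1.16) and Lrp1 (1.25) lie farthest to the right, and the 3 SREBP pathway genes shown lie between -0.47 and -0.40. Genes of the lists are shown only if they passed the test, so their distance from 0 follows from that choice. The 27 SREBP pathway genes measured had a median of -0.08, and 23 of them did not pass.

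Around Apoe on chromosome 7 the measured genes on either side of Apoe and Apoc1 had small differences in either direction. Of 20 other genes of a list of chromosome 7 neighbours measured, 2 rose and 18 did not pass (median 0.02). They were Trappc6a, a subunit of a vesicle tethering complex (28.9 ± 0.788 to 43.3 ± 5.38 TPM, limma adjusted p = 0.023), and Ppp1r37, a regulator of protein phosphatase 1 (0.36 ± 0.10, limma adjusted p = 0.047). Both lie outside the 100 kb on each side of Apoe. Within that window 7 other protein-coding genes were measured, with log2 fold changes between -0.31 (Bcam) and 0.20 (Clasrp). The window was chosen after the values were known and is described without a test. Tomm40, the nearest upstream gene, was at 152 ± 5.38 and 128 ± 7.15 TPM.

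Lrp1 on chromosome 10 had neighbours with differences of like size. The window of 100 kb on each side was chosen after the values of Lrp1 were known and is described without a test. Of 8 other protein-coding genes measured there, Nxph4, encoding a neurexin ligand and the next gene downstream, was at 2.62 ± 0.566 TPM in wild-type and 7.16 ± 1.13 TPM in mutant sets (log2 fold change 1.18 ± 0.17). Ndufa4l2, a mitochondrial protein gene induced by hypoxia, was at 47.4 ± 2.50 and 133 ± 24.8 TPM (1.46 ± 0.14). Shmt2, which lies between them and shares its last bases with the end of Ndufa4l2 on the opposite strand, was at 174 ± 9.66 and 192 ± 10.3 TPM (0.14 ± 0.08), so the difference was not shared by every gene of the stretch. On the upstream side Stat6 had a log2 fold change of 0.39 ± 0.11, Nab2 of 0.23 ± 0.11, Nemp1 of 0.01 ± 0.12 and Myo1a of -0.50 ± 0.20.

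**Figure D4:**
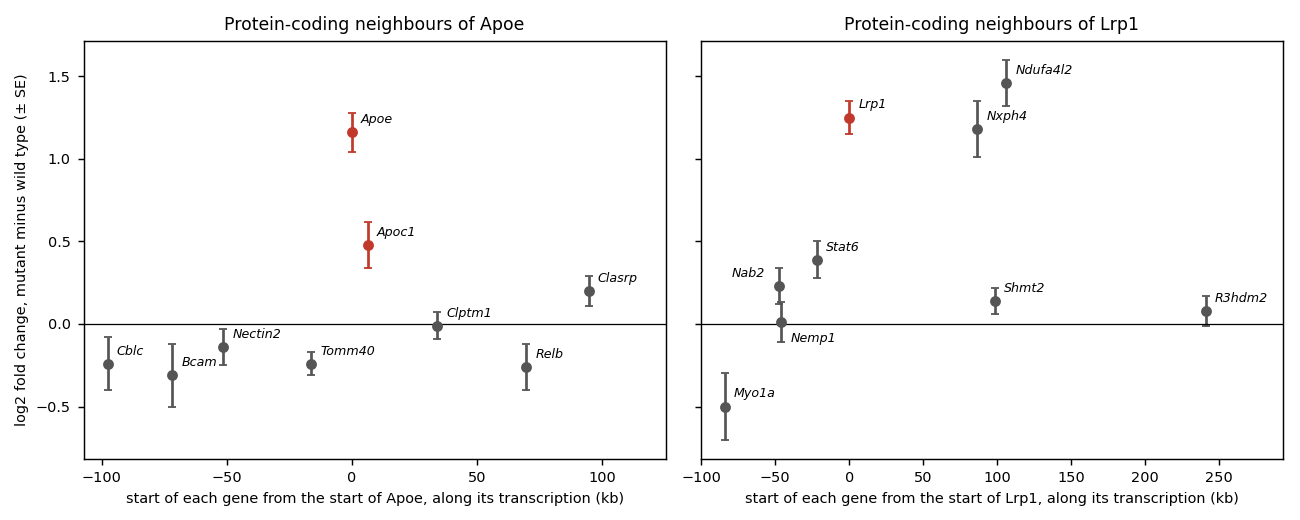
Log2 fold change (mutant minus wild type, points, with SE bars) of the measured protein-coding genes that reach within 100 kb of Apoe (left) and Lrp1 (right), placed by the distance of each gene's start from the start of Apoe or Lrp1 in kb, downstream to the right. Apoe and Apoc1 stand above neighbours that lie between -0.31 and 0.20, and Lrp1 stands beside Nxph4 (1.18) and Ndufa4l2 (1.46).

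Among the 5 genes whose log2(TPM + 1) followed Apoe most closely over the 10 libraries, predicted genes passed over, were Ifi30 (Pearson r = 0.998), Rnf181 (0.994), Cd68 (0.992) and Amdhd2 (0.991). These 4 were higher in the mutant, and the 10 points share 2 genotypes and 5 sets, so they are not independent. With the genotype means taken away, the closest were Renbp and Ifi30 (both 0.976), Cd68 (0.964), Dkc1 (0.963) and Fam50a (0.959). These points still share 5 sets. Every r given here was picked as the highest among the tested genes, and the usual height of r was not computed. Ifi30, a lysosomal thiol reductase, had means of 29.6 and 54.0 TPM in wild-type and mutant sets. For Vldlr the closest over the 10 libraries were Coq4 (0.941), Blvra (0.921) and Abcf3 (0.911), and within genotypes Ruvbl2 (0.943), Coq4 (0.930) and Blvra (0.920).

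Apoe and Cd68 are well known from macrophages and Apoe from endoderm, so the markers of those cells are given beside the Apoe values. Of 8 macrophage markers 1 was measured, Cd68, a lysosomal glycoprotein, which rose from 17.6 ± 1.61 to 33.7 ± 5.72 TPM (limma adjusted p = 0.012). Adgre1, Ptprc, Lyz2, C1qa and Tyrobp (5 of the 8) were listed at 0 in all 10 libraries, and Csf1r did not exceed 0.03 TPM. Itgam was detected in every library, at 0.07 to 0.24 TPM in wild-type and 0.07 to 0.28 TPM in mutant libraries. The summed level of the list was 16.1 to 19.1 TPM in wild-type and 28.8 to 41.6 TPM in mutant libraries, nearly all of it Cd68. Of 11 primitive endoderm markers 4 were measured, of which Col4a1 and Lama1 rose and Lamb1 and Srgn fell, and the summed level was 37.2 to 42.2 TPM in wild-type and 40.7 to 51.1 TPM in mutant libraries. The markers of that list below the filter were at most 0.85 TPM (Gata6), 0.45 TPM (Gata4), 0.42 TPM (Dab2) and 0.25 TPM (Pdgfra). Sox17, Foxa2 and Sox7 were at most 0.20, 0.19 and 0.05 TPM. None of them passed with no filter on low values. Gata4 had the smallest p of them (limma adjusted p = 0.162), at 0.16 to 0.36 TPM in wild-type and 0.36 to 0.45 TPM in mutant libraries. Of 9 visceral endoderm markers 3 were measured and none passed, Apom (limma adjusted p = 0.059) and Hnf4a (0.137) with the smallest p, with sums of 4.05 to 7.19 TPM and 4.71 to 6.77 TPM. Amn, a marker of that list below the filter, was also named with its values in view. It was at 0.08 to 0.22 TPM in wild-type and 0.73 to 1.45 TPM in mutant libraries (limma adjusted p = 0.0301 with no filter on low values). Of 8 stem cell markers, all measured, Esrrb and Tdgf1 rose, Nanog (543 ± 43.6 to 339 ± 23.2 TPM) and Zfp42 (361 ± 11.8 to 257 ± 42.9 TPM) fell, and the sum was 3116 to 3331 TPM and 2735 to 3046 TPM. Of 4 trophoblast markers measured Krt18 rose (sums 17.8 to 25.0 and 24.7 to 34.9 TPM). Gata3, of the same list and below the filter, was named with its values in view. It was at 0.68 to 1.04 TPM in wild-type and 0 to 0.27 TPM in mutant libraries (limma adjusted p = 0.0279 with no filter on low values). Among markers of other cells, Sox1 rose of 3 neural markers (24.8 to 28.8 and 22.0 to 31.7 TPM), and neither of 2 feeder fibroblast markers, Pdgfrb and Thy1, passed (limma adjusted p = 0.052 and 0.067; sums 4.64 to 7.25 and 5.6 to 6.68 TPM). The part of any other cell type in the Apoe values was not tested beyond these levels.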

How the data were processed

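The 10 libraries were poly(A) RNA-seq libraries of E14 cells. The authors deposited 1 table of TPM values. Tools named in the submitters' processing notes are STAR, RSEM, Trim Galore and DESeq2, with the build mm10, per the labels. Versions, settings, strand mode and annotation: not given in the sources used here. Each column sums to 1000000, so more of one transcript means less of the others, and depth is unknown. All columns were matched to samples by name, and 0 were left out.

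Positions come from GENCODE M21 (GRCm38, the assembly of mm10), where 55141 of 55401 identifiers matched without their version, and upstream sequences from RefSeq (GRCm38.p6). Values were taken as log2(TPM + 1), and 12797 genes whose mean reached 1 TPM were kept. Mutant was compared with wild type on set means (limma 3.58.1, R 4.3.3, eBayes with trend, two-sided, 3 residual and 4.01 prior degrees of freedom). Sets of a genotype were compared on single libraries in 1 fit of 5 set means (5 residual and 2.86 prior degrees of freedom). Benjamini-Hochberg adjustment ran over all tested genes, with a threshold of 0.05. Neither DESeq2 nor another count test was run here, since TPM are not counts. The fits were tested on simulated data.

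The members, gene lists and tests were chosen with earlier results of these data known. Genes named were the 8 members, from each pathway list up to 4 and from each cell type list up to 2 called genes by size of log2 fold change (in a list without calls, the 2 of smallest p), and the genes most like Apoe (5) and Vldlr (3) by Pearson r. Others are marked as such, and 3 genes that the rule took are not reported here. The settings varied were the pseudocount (0.1), the filter (none, or a mean reaching 5 TPM), median-of-ratios and quantile scaling, no variance trend, single libraries with and without the set as a random block or the replicate number as a block, and leaving out each library and each set. A correction for GC content (lowess, span 0.3) was chosen after seeing the data. The plots were made in matplotlib 3.10.9.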

Additional observations from a re-analysis of the deposited data

Results flagged for a closer look

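Lrp1 in replicate 1 of mutant set 1 (98.96 TPM) lay far from the other mutant libraries, whose nearest value was 78.79 TPM and lowest 71.38 TPM. Without that library the log2 fold change of Lrp1 was 1.20, against 1.25 with it. Krt18 in replicate 2 of mutant set 3 (6.6 TPM) lay apart in the same way, with 5.43 TPM nearest and 5.06 TPM lowest. In 72 groups of 4 or 6 libraries examined, 2 had such a value, and chance gives about 1 in 20 groups.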

How the results depend on the processing

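For the 8 genes the sign of the log2 fold change between genotypes held under the 25 alternatives for Apoe (1.04 to 1.25), Lrp1 (1.17 to 1.33), Apoc1 (0.36 to 0.61) and Abca1 (0.10 to 0.22) and under 24 for Vldlr (0.08 to 0.26), while Lrp8 (-0.33 to 0.00), Abcg1 (-0.97 to -0.06) and Nr1h2 (-0.24 to 0.01) came near 0; Vldlr, Lrp8 and Abcg1 did not pass the filter at 5 TPM and have 24 alternatives. The number of genes called between genotypes moved from 2242 to 809 with no filter on low values (250 higher, 559 lower), to 5269 with sets ignored (2166 and 3103) and to 3398 with the set as a random block (2063 lower). Leaving out a library or a set gave 42 to 2393 genes (10 to 1005 higher, 32 to 1388 lower), and it was lowest without wild-type set 2; where a genotype was left with 1 set, that set was assumed to vary like the others. Between wild-type sets the count moved from 352 to 157 with no variance trend and to between 44 and 614 without a library. Between mutant sets it moved from 2507 to 1614 with no filter and to between 1118 and 2801 without a library. The cause was not tested. The Apoe difference between wild-type sets was lost in 10 of 18 alternatives (limma adjusted p 0.0282 to 0.194), whereas those of Apoe and Apoc1 between mutant sets passed in all 18. Lrp8 passed between mutant sets with no variance trend (limma adjusted p = 0.0455).

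Replicate numbers did not pair the libraries, since the deviations of replicate 1 from its set mean correlated between sets at -0.08 to 0.12 over 10 pairs of sets. With the replicate block on single libraries and sets ignored, 4998 genes were called between genotypes (2054 higher, 2944 lower), against 5269 without the block. Between wild-type sets 233 genes were called with the block, against 352 without it. TPM carry no depth, so what sequencing depth limits could not be measured, and low genes such as Abcg1, Vldlr and Lrp8 have the least certain values.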

Other observations

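Lrp2, encoding the endocytic receptor megalin of the same family as LRP1, fell below the filter on the mean, because it was low in the mutant. It was at 1.06 to 1.35 TPM in the wild-type libraries and at 0.13 to 0.22 TPM in the mutant libraries, with no overlap. With no filter on low values its log2 fold change was -0.91 ± 0.07 (limma adjusted p = 0.0279), opposite in direction to that of Lrp1. Amn, also on the list of visceral endoderm markers and encoding the membrane anchor with which the megalin partner cubilin forms a receptor, was at 0.08 to 0.22 TPM in wild-type and 0.73 to 1.45 TPM in mutant libraries (0.84 ± 0.08, limma adjusted p = 0.0301 with no filter), while Cubn itself was at most 0.02 TPM. Both were picked with their values in view, at levels near 1 TPM whose read support is unknown.

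Among the 174 other pathway genes, 2 genes of ABC transporters below the filter also separated the genotypes without passing the test, as did Gulp1 and Exoc3l2. The share of all genes below the filter that separate in this way was not computed. Abcg4, a sterol exporter best known from the brain, was at 0.08 to 0.20 TPM in wild-type and 0.33 to 0.77 TPM in mutant libraries (limma adjusted p = 0.0858 with no filter), and Abcg3 at 0.03 to 0.17 TPM and 0 to 0.02 TPM (0.0692). The values are given to 2 decimals, so those of Abcg3 in the mutant lie at the floor.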
